A study of Mus musculus with 4 samples.

Results

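Transcripts of 8 genes of subpallial progenitors and of the early oligodendrocyte lineage were measured in sorted embryonic cells with and without *Dnmt1*, the maintenance DNA methyltransferase. The genes were taken by symbol, and all 8 were found among the 56883 genes of the deposited table: *Gsx1*, *Gsx2*, *Olig1*, *Olig2*, *Nkx2-2*, *Nkx6-2*, *Pdgfra* and *Sox10*. Bulk RNA sequencing was performed on E14.5 mouse cells, FAC-sorted for tdTomato from the basal telencephalon, the ventral forebrain in which cortical interneurons are born. Control embryos were *Sst-Cre/tdTomato* and *Dnmt1* KO embryos were *Sst-Cre/tdTomato/Dnmt1 loxP2*, so that all cells carried the Cre and the reporter and the groups differed in the floxed *Dnmt1* alleles. Cre is driven from the somatostatin (*Sst*) gene, which is switched on in postmitotic interneurons, and each of the 2 libraries per genotype holds RNA of cells from several embryos. The comparison asks how transcripts of genes that belong to progenitors and glial precursors of the same territory differed between the sorted pools of the 2 genotypes.

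GSX1 and GSX2 are homeodomain factors of dividing progenitors in the subpallium, which includes the embryonic ganglionic eminences, where they set ventral telencephalic fate. OLIG1 and OLIG2 are basic helix-loop-helix factors of ventral progenitors and of oligodendrocyte precursors, which leave the subpallium in successive waves, while NKX2-2 and NKX6-2 are homeodomain factors of ventral progenitor domains and of the maturing oligodendrocyte lineage. PDGFRA is the growth factor receptor that marks oligodendrocyte precursors, and SOX10 is the SoxE factor that these cells share with neural crest derivatives. None of the 8 is a proneural gene in the strict sense, and none is a known marker of postmitotic somatostatin interneurons.

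The libraries held between 6970247 and 8376711 reads, recovered from normalized counts, that is, reads divided by 1 size factor per library. The interneuron genes *Sst* and *Lhx6* were abundant in all 4 libraries. The radial glia genes *Vim* and *Fabp7* were abundant too, averaging 1326 and 1023 normalized counts per kb of annotated transcript. On the same scale *Lhx6* averaged 996 and *Sst* 1916. Whether other cell types were present in the pools was not tested. *Dnmt1* itself had 2238 and 2341 normalized counts in control and 2164 and 2210 in *Dnmt1* KO libraries, which does not check the deletion, because whole-gene counts include transcripts that lack the floxed exons. Testing with limma on log2(normalized count + 1) covered genes that averaged 10 or more normalized counts. Of 14323 such genes, 1287 were called lower and 1189 higher in *Dnmt1* KO cells, at a Benjamini-Hochberg adjusted p below 0.05.

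All 8 genes were weakly expressed. Per kb of annotated transcript, the mean over the 4 libraries was 20.0 normalized counts for *Gsx2*, 16.5 for *Nkx2-2*, 14.0 for *Olig2*, 11.1 for *Olig1*, 10.7 for *Gsx1*, 6.50 for *Pdgfra*, 3.70 for *Nkx6-2* and 2.75 for *Sox10*. The median of the genes tested was 44.7 on this scale, above each of the 8. Neighbours in this order overlapped in their library values in every case, whereas the *Sox10* libraries, at 1.40 to 4.00, all lay below the *Pdgfra* libraries, at 4.48 to 10.3. *Nkx2-1*, the homeobox gene of the medial ganglionic eminence, stood at 124.5, while *Lhx6* reached 996 and *Sst* 1916.

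**Figure D1:**
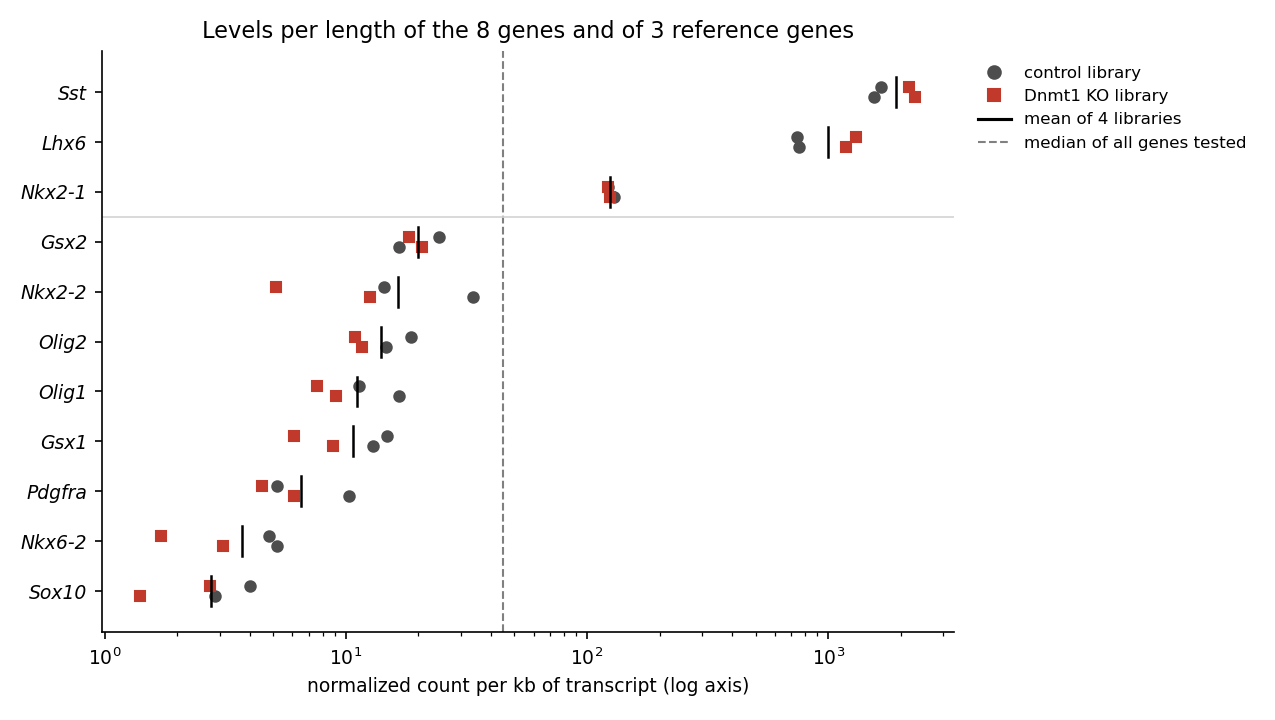
Normalized count per kb of annotated transcript (log axis) of the 8 genes and of 3 reference genes in each control (circles) and *Dnmt1* KO (squares) library, with the mean of the 4 libraries as a bar and the median of all genes tested as a dashed line. The 8 genes average 2.75 to 20.0, below the median of 44.7.

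Summed over the 8 genes, control libraries held 306.9 and 251.1 normalized counts and *Dnmt1* KO libraries held 195.3 and 154.1. Both control libraries thus lay above both *Dnmt1* KO libraries, and the *Dnmt1* KO mean was 62.6% of the control mean. Control replicate 1 was high for *Nkx2-2* and *Pdgfra*, at 71.6 and 75.2 normalized counts against 30.6 and 37.8 in control replicate 2. The summed difference thus rests in part on these 2 genes in 1 library. The mean of each of the 8 genes was lower in *Dnmt1* KO cells, and for 6 of the 8 both control libraries exceeded both *Dnmt1* KO libraries. Among the 6 genes that could be tested this separation held for 4, where 29% of all genes tested showed it. Limma called 1 of the 6 lower, *Nkx2-2*, and 0 higher, beside 8.99% called lower among all genes tested. All 6 had a negative log2 fold change, as did 50.51% of all genes tested. The median log2 fold change of the 6 genes was -0.61, against -0.0033 over all genes tested. In these bulk samples, fewer cells of a type and less RNA per cell cannot be told apart.

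**Figure D2:**
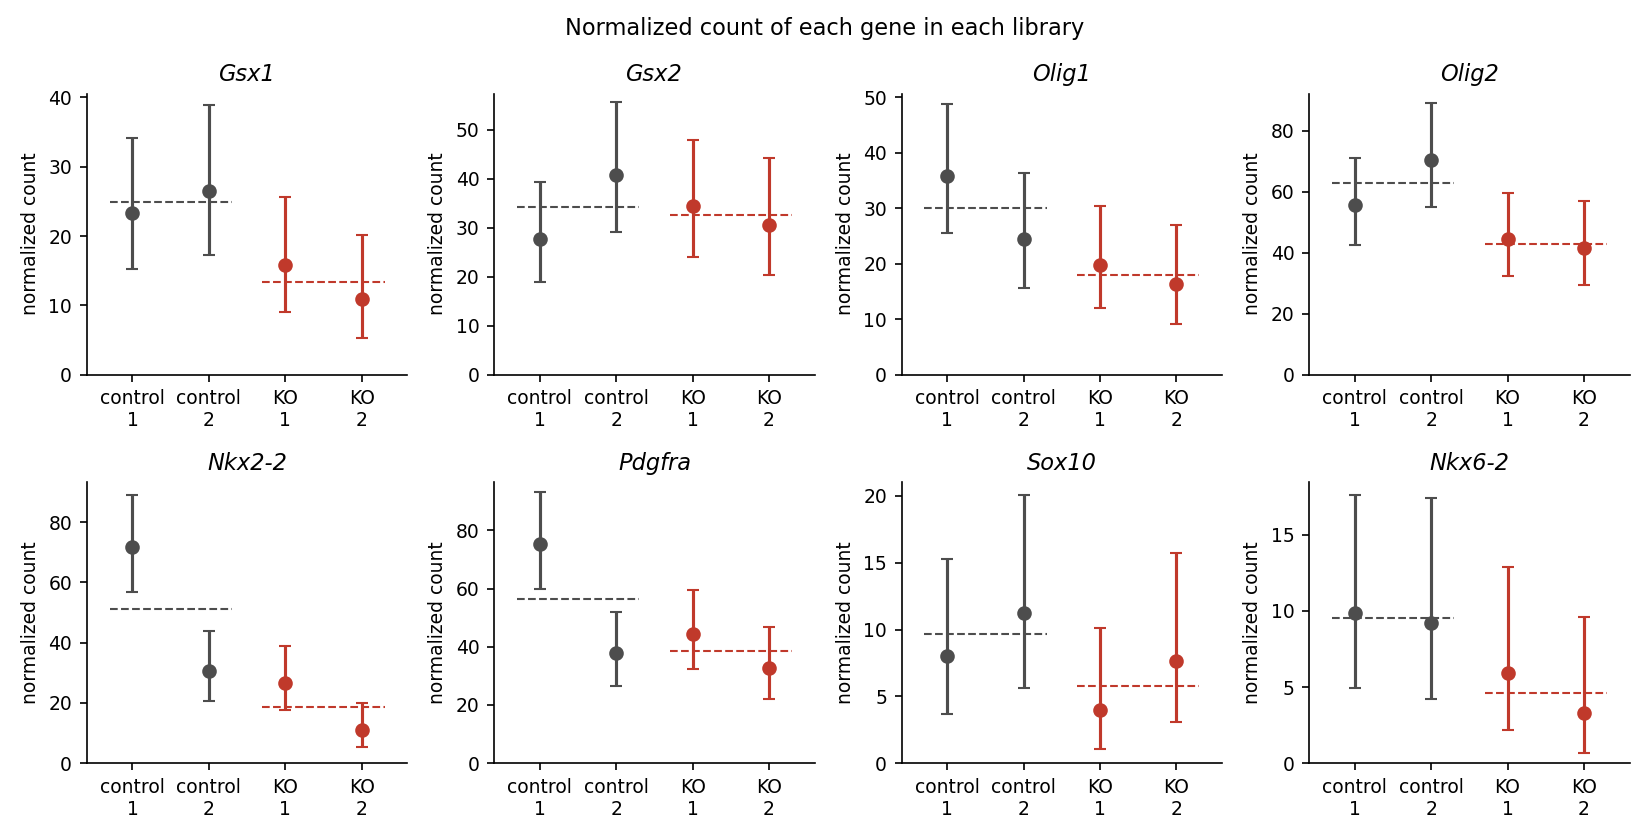
Normalized counts of each of the 8 genes in the 2 control and 2 *Dnmt1* KO libraries, with group means. *Gsx2* and *Pdgfra* overlap between genotypes, and the other 6 genes lie lower in both *Dnmt1* KO libraries.

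*Nkx2-2* (ENSMUSG00000027434; GRCm39 chromosome 2, 147019466 to 147036163, minus strand) was the called gene. Its normalized count was 71.6 and 30.6 in control and 26.6 and 10.9 in *Dnmt1* KO libraries. All control values lay above all *Dnmt1* KO values, but control replicate 2 and *Dnmt1* KO replicate 1 were close to each other. Means were 51.1 ± 29.0 (SD, n = 2) and 18.8 ± 11.1 (SD, n = 2), and the log2 fold change was -1.40 (standard error 0.45, 95% confidence interval -2.35 to -0.45, adjusted p = 0.0414 by limma). The control libraries also differed from each other by more than Poisson error, with 95% Poisson intervals of 56.8 to 89.1 and 20.7 to 43.7 normalized counts. These intervals cover counting error only and treat each read as independent. Without control replicate 1 the log2 fold change was -0.80 (adjusted p = 0.392 by limma), and without *Dnmt1* KO replicate 2 it was -0.79 (adjusted p = 0.138 by limma). DESeq2 on recovered reads did not call the gene (log2 fold change -1.44, adjusted p = 0.101), whereas edgeR did (log2 fold change -1.43, adjusted p = 0.0334).

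The nearest expressed gene beside *Nkx2-2* was *Nkx2-4*, a related homeobox gene of the ventral hypothalamus, 92.063 kb away. It had 24.2 and 43.9 normalized counts in control and 11.8 and 6.56 in *Dnmt1* KO libraries. These values did not overlap, and the gene was also called lower (log2 fold change -1.77, adjusted p = 0.0138 from limma), although the adjusted p was 0.185 without control replicate 2 and 0.0564 with DESeq2. On the other side, 1235 kb away, *Cd93*, a receptor gene of endothelial and blood-forming cells, had 100.2, 73.5, 28.6 and 21.9 normalized counts. It was called lower (log2 fold change -1.74, adjusted p = 0.000405 by limma), and was called whichever library was left out. *Nkx2-1*, the family member that defines the medial ganglionic eminence, had 369, 346, 353 and 346 normalized counts in the same order of libraries (log2 fold change -0.030, adjusted p = 0.877 by limma). Among 8145 protein-coding genes with a mean of at least 100, those closest to *Nkx2-2* by Euclidean distance of centred log2 values over the 4 libraries were *Gm38431*, *Ptar1* and *Hbb-bs*, at distances of 0.861, 0.903 and 0.904.

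The other NK homeobox gene, *Nkx6-2* (ENSMUSG00000041309; chromosome 7, 139159292 to 139162718, minus strand), was below the minimum for testing. Its normalized count was 9.84 and 9.19 in control and 5.92 and 3.28 in *Dnmt1* KO libraries, that is, 11, 9, 6 and 3 reads. The genotypes did not overlap, and means were 9.52 ± 0.464 (SD, n = 2) and 4.60 ± 1.87 (SD, n = 2). With the minimum lowered to a mean of 1, the log2 fold change was -0.95 (95% confidence interval -2.19 to 0.29, adjusted p = 0.362 by limma), so a difference was not detectable at this depth. Its exons overlap those of *Inpp5a* on the opposite strand, and although the methods name a stranded library kit, the strand setting used for counting is not given, so these reads are uncertain. The related *Nkx6-1* had 14.3 and 16.3 normalized counts in control and 15.8 and 17.5 in *Dnmt1* KO libraries, which overlap (log2 fold change 0.11, adjusted p = 0.895 by limma).

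*Gsx1* and *Gsx2* are close relatives with partly shared roles in progenitors. *Gsx1* (ENSMUSG00000053129; chromosome 5, 147125489 to 147127757, plus strand) had 23.3 and 26.5 normalized counts in control and 15.8 and 10.9 in *Dnmt1* KO libraries. The groups did not overlap, and the *Dnmt1* KO mean of 13.4 ± 3.43 (SD, n = 2) was 53.6% of the control mean of 24.9 ± 2.32 (SD, n = 2). The log2 fold change of -0.87 (standard error 0.41, 95% confidence interval -1.74 to -0.0017) did not pass the adjustment (adjusted p = 0.165 by limma). *Gsx2* (ENSMUSG00000035946; chromosome 5, 75236252 to 75238554, plus strand) had 27.7 and 40.8 normalized counts in control and 34.5 and 30.6 in *Dnmt1* KO libraries. Both *Dnmt1* KO values lay between the control values, and the log2 fold change was -0.050 (95% confidence interval -0.72 to 0.62, adjusted p = 0.941 by limma). That interval includes a fall of the size seen for *Olig2*, and the difference between the changes of *Gsx1* and *Gsx2* was not tested.

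Sequences upstream of an annotated start of the called gene and of the gene whose fold change was nearest to 0 are given because DNMT1 acts on CpG dinucleotides. DNA methylation was not analysed here. In the RefSeq promoter windows of 300 bases (GRCm38.p6 table, 6 of the 8 genes matched), the CG dinucleotide occurred 17 times in *Nkx2-2*, 17 in *Gsx2*, 19 in *Gsx1*, 25 in *Olig2*, 32 in *Nkx6-2* and 5 in *Pdgfra*. The median of all 32851 promoters was 7, and 94.57% held at least 1 such dinucleotide, which reads the same on either strand. *Nkx2-2* and *Gsx2* had the same number in this window, which includes exon bases, but the exon-free stretches shown hold 6 in 197 bases for *Nkx2-2* and 13 in 211 bases for *Gsx2*. Exon-free stretches of these windows, placed by exact match to GRCm39, are shown with CG in capitals. The first, chr2:147028376-147028572 on the minus strand, lies within the *Nkx2-2* gene, upstream of an internal start. The second, chr5:75236041-75236251 on the plus strand, ends directly before the start of *Gsx2*. Their CG counts therefore come from unlike positions in the genes.
Nkx2-2: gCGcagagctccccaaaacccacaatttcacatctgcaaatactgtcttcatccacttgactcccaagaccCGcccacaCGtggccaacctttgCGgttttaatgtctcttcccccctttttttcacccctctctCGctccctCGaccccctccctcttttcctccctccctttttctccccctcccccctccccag
Gsx2: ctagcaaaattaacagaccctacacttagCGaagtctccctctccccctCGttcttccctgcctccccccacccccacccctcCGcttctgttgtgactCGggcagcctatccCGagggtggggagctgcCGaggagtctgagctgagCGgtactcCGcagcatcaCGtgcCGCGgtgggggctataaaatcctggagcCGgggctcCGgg

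*Olig2* (ENSMUSG00000039830; chromosome 16, 91019435 to 91025567, plus strand) had 55.5 and 70.4 normalized counts in control and 44.4 and 41.5 in *Dnmt1* KO libraries. The groups did not overlap, with means of 63.0 ± 10.6 (SD, n = 2) and 43.0 ± 2.03 (SD, n = 2). The log2 fold change was -0.53 (standard error 0.25, 95% confidence interval -1.06 to -0.0049, adjusted p = 0.161 by limma). *Olig1*, 41.093 kb away on the same chromosome (ENSMUSG00000046160; 91066660 to 91068821, plus strand), had 35.8 and 24.5 normalized counts in control and 19.7 and 16.4 in *Dnmt1* KO libraries. Again both control values were higher, with means of 30.1 ± 7.99 (SD, n = 2) and 18.1 ± 2.36 (SD, n = 2). Its log2 fold change was -0.69 (95% confidence interval -1.48 to 0.095, adjusted p = 0.226 by limma). Neither gene was called, and the control library with the higher count was replicate 2 for *Olig2* and replicate 1 for *Olig1*. On the other side of *Olig2*, 107.948 kb away, the processed pseudogene *H3f3a-ps2* had 43.0, 28.6, 10.9 and 9.83 normalized counts and was called lower (log2 fold change -1.67, adjusted p = 0.00894 by limma). Without control replicate 1 its adjusted p was 0.120 by limma, and its reads are uncertain because histone H3 genes are close copies. *Ifnar2*, an interferon receptor gene beyond *Olig1*, had 66.2, 65.3, 96.7 and 86.3 normalized counts in the same order of libraries and was not called (log2 fold change 0.47, adjusted p = 0.125 by limma).

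The third *Olig* gene, *Olig3*, is known from progenitors of the dorsal hindbrain, spinal cord and thalamus. It had 48.3 and 53.1 normalized counts in control and 5.92 and 4.37 in *Dnmt1* KO libraries. The separation was wide, with means of 50.7 ± 3.37 (SD, n = 2) and 5.14 ± 1.09 (SD, n = 2), and the gene was called lower (log2 fold change -3.08, standard error 0.42, adjusted p = 0.000114 by limma). It was called whichever library was left out, with a highest adjusted p of 0.00600 from limma, and by DESeq2 (adjusted p = 3.64e-05).

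*Pdgfra* (ENSMUSG00000029231; chromosome 5, 75311994 to 75358876, plus strand) lies 73.44 kb from *Gsx2*. It had 75.2 and 37.8 normalized counts in control and 44.4 and 32.8 in *Dnmt1* KO libraries. Control replicate 1 stood above the other 3 libraries, and control replicate 2 lay between the *Dnmt1* KO values. Means were 56.5 ± 26.4 (SD, n = 2) and 38.6 ± 8.21 (SD, n = 2), with a log2 fold change of -0.47 (95% confidence interval -1.16 to 0.21, adjusted p = 0.354 by limma). Without control replicate 1 the log2 fold change was 0.014. *Pdgfa*, which encodes a ligand of the receptor, had 41.2, 55.1, 48.3 and 56.8 normalized counts and was not called (log2 fold change 0.13, adjusted p = 0.777 by limma).

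*Sox10* (ENSMUSG00000033006; chromosome 15, 79039108 to 79049469, minus strand) was near the limit of detection. It had 8.05 and 11.2 normalized counts in control and 3.95 and 7.65 in *Dnmt1* KO libraries, that is, 9, 11, 4 and 7 reads. The values did not overlap, but *Dnmt1* KO replicate 2 and control replicate 1 differed by only a few reads. With a minimum mean of 1, the log2 fold change was -0.69 (95% confidence interval -1.91 to 0.54, adjusted p = 0.531 by limma). Of the other SoxE genes, *Sox9*, a factor of glial progenitors, was counted at 557, 593, 317 and 332 and was called lower (log2 fold change -0.82, adjusted p = 1.95e-05 by limma). *Sox8* was counted at 138, 159, 77.9 and 141 and was not called (log2 fold change -0.49, adjusted p = 0.148 by limma).

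**Figure D3:**
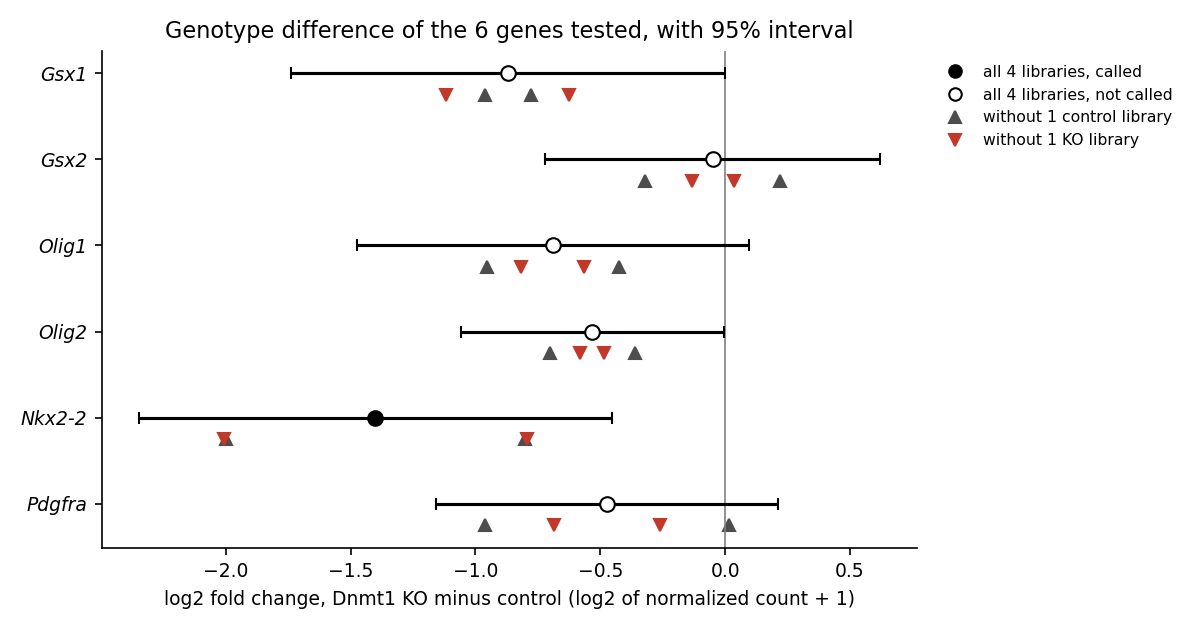
Log2 fold change of *Dnmt1* KO against control for the genes tested, with 95% confidence intervals from limma (bars) and the values after leaving out 1 control (upward triangles) or 1 *Dnmt1* KO library (downward triangles). The interval of *Nkx2-2* lies farthest from 0, and that of *Gsx2* is centred near 0.

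Related genes were read from lists of cell type markers. Of 22 further genes listed for subpallial progenitors, 8 were called lower and 3 higher, with a median log2 fold change of -0.24. The list includes *Olig3*, which is better known from other regions, and without it 7 of 21 were called lower, with a median of -0.22. Those lower were *Olig3*, *Lhx2*, *Gli3*, *Gli2*, *Hes5*, *Gadd45g*, *Six3* and *Otx2*, with *Lhx2*, a regional homeobox gene, at -1.20 (adjusted p = 6.03e-07 by limma) and *Gli3*, an effector of hedgehog signalling, at -0.97 (adjusted p = 0.000286 by limma). Those higher were *Dlx1*, *Dlx2* and *Sp9*, factors that migrating interneurons keep, at 0.39, 0.34 and 0.64. Without control replicate 2, 5 of the list were called lower, *Gadd45g*, *Gli2* and *Six3* being lost, and without control replicate 1 *Otx2* was lost, although 8 of the list were again called lower. The summed count of the list was 7955 to 8183 in control and 8212 to 8271 in *Dnmt1* KO libraries. This sum is weighted towards *Dlx1*, *Dlx2* and *Sp9*, which had the largest counts of the list. Their means were 1659, 1381 and 913 in control and 2177, 1746 and 1427 in *Dnmt1* KO libraries. By contrast, 17 of the 22 genes had a negative log2 fold change.

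Of 16 genes of oligodendrocyte precursors, 13 were tested, 3 were called lower and 1 higher, and the median log2 fold change was -0.40. *Sox9*, *Ptprz1* and *Ednrb* were lower, all of which radial glia express too. *Ptprz1*, a receptor phosphatase, had 1585, 1655, 1187 and 1269.6 normalized counts (log2 fold change -0.40, adjusted p = 0.000463 by limma), and *Ednrb*, the endothelin receptor, changed by -1.02 (adjusted p = 0.000166 by limma). *Lhfpl3* was higher, at 27.7, 27.6, 51.3 and 51.4 normalized counts (log2 fold change 0.87, adjusted p = 0.0431 by limma), but lost its call whichever library was left out, with adjusted p up to 0.133 from limma. *Cspg4*, which encodes the NG2 proteoglycan of these precursors, had 33.1, 26.5, 26.6 and 13.1 normalized counts and was not called (log2 fold change -0.63, adjusted p = 0.309 by limma). Without *Dnmt1* KO replicate 2, 5 of the list were called lower. The summed count was 8296 to 8364 in control and 7826 to 8024 in *Dnmt1* KO libraries. This sum is weighted towards *Vcan*, the gene of the list with the largest count. Its means were 4014 in control and 4235 in *Dnmt1* KO libraries, and it was not called (log2 fold change 0.077). Of the 13 genes tested, 7 had a negative log2 fold change. Of 12 genes of myelinating oligodendrocytes, 4 were tested and 0 called, and *Enpp6* and *Opalin* were at 0 in all libraries. *Mobp* had 21.4 normalized counts in control replicate 2 but 1.79, 0.986 and 0 in the other libraries. *Myrf* was likewise highest in control replicate 2, at 20.4, and had 2.68, 1.97 and 6.56 in the other libraries.

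**Figure D4:**
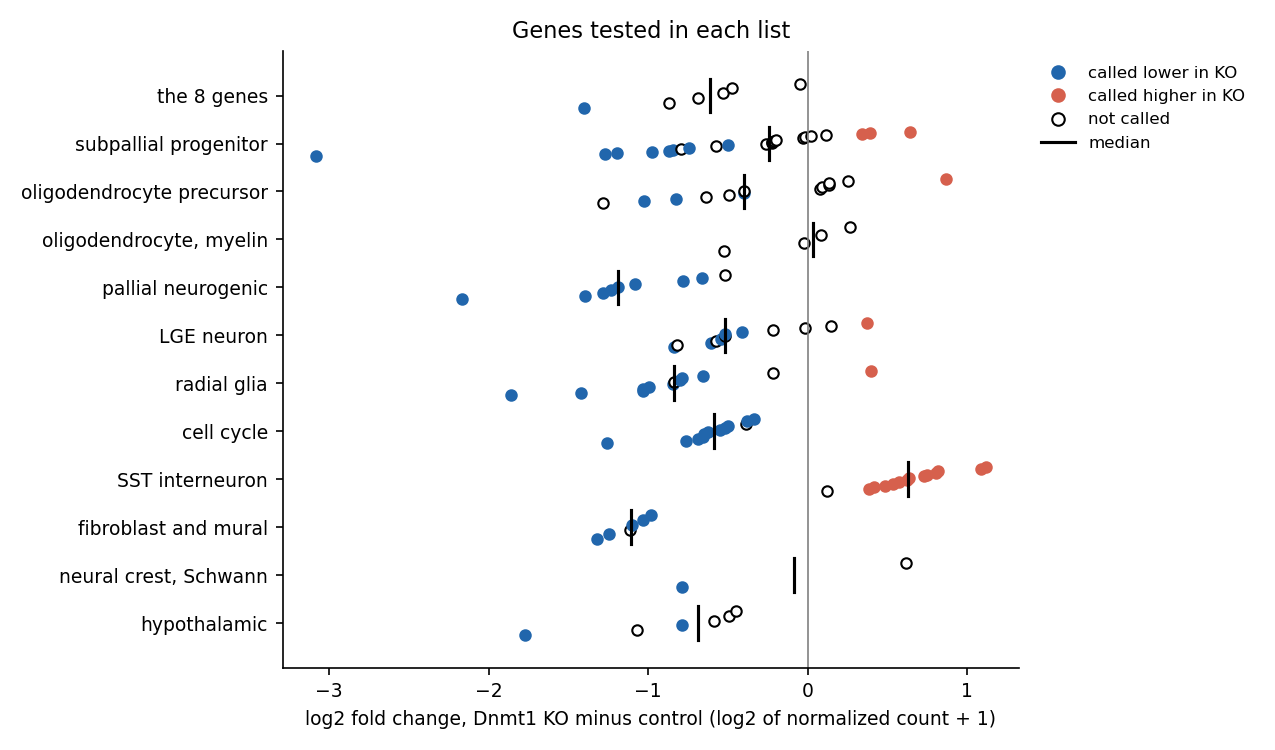
Log2 fold change of *Dnmt1* KO against control for each gene tested in the 8-gene set and in the marker lists, with genes called lower in blue, called higher in red, not called as open circles and medians as bars. Interneuron genes lie above 0, and radial glia, cell cycle and pallial neurogenic genes lie mostly below 0.

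Most markers of radial glia, of dividing cells and of pallial neurogenesis were called lower in *Dnmt1* KO libraries. Of 12 radial glia markers, 9 were called lower and 1 higher (median log2 fold change -0.84), and their summed count was 11567 to 11645 in control and 7012 to 7234 in *Dnmt1* KO libraries. Of 12 cell cycle genes, 11 were called lower (median -0.59), or 6 without control replicate 1, and the sums were 7109 to 7325 and 4989 to 4996. Of 9 pallial neurogenic genes, 8 were called lower (median -1.19), with sums of 3018 to 3028 and 1465 to 1653. Genes of the lateral ganglionic eminence were called lower in 5 and higher in 1 of 12 (median -0.52). The gene called higher, *Etv1*, had an adjusted p of 0.0498 by limma and lost its call whichever library was left out and with DESeq2 (adjusted p = 0.284). The sums of this list were 4133 to 4209 and 3104 to 3199. All defining markers of these 4 lists were detected.

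Fibroblast and mural cell genes, which include *Pdgfrb*, were called lower in 5 of 6 tested of 10, or in 2 without control replicate 2 and in 3 without control replicate 1 (median log2 fold change -1.10), and their sum was 408 to 440 in control and 191 to 199 in *Dnmt1* KO libraries. Hypothalamic genes, which include *Nkx2-4*, were called lower in 2 of 6 tested of 8, or in 1 without control replicate 2 (median -0.69), with sums of 538 to 549 and 313 to 327. Of 8 neural crest and Schwann cell genes 2 were tested, and *Fabp7*, also a radial glia gene, was called lower. *Ets1*, a transcription factor gene, had 95.8, 55.1, 99.6 and 125.6 normalized counts and was not called (log2 fold change 0.62, adjusted p = 0.0927 by limma). *Mia* was at 0, and the sums were 1323 to 1337 and 769 to 912. Without *Fabp7*, which was left out after these values were seen, the other 7 genes summed to 138.7 and 78.6 in control and 118.4 and 147.5 in *Dnmt1* KO libraries, which overlap. Of 14 somatostatin interneuron genes, 13 were called higher and 0 lower (median 0.63), with sums of 25402 to 25640 in control and 39957 to 40474 in *Dnmt1* KO libraries. The part of these differences in the lower counts of the 8 genes was not tested.

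**Figure D5:**
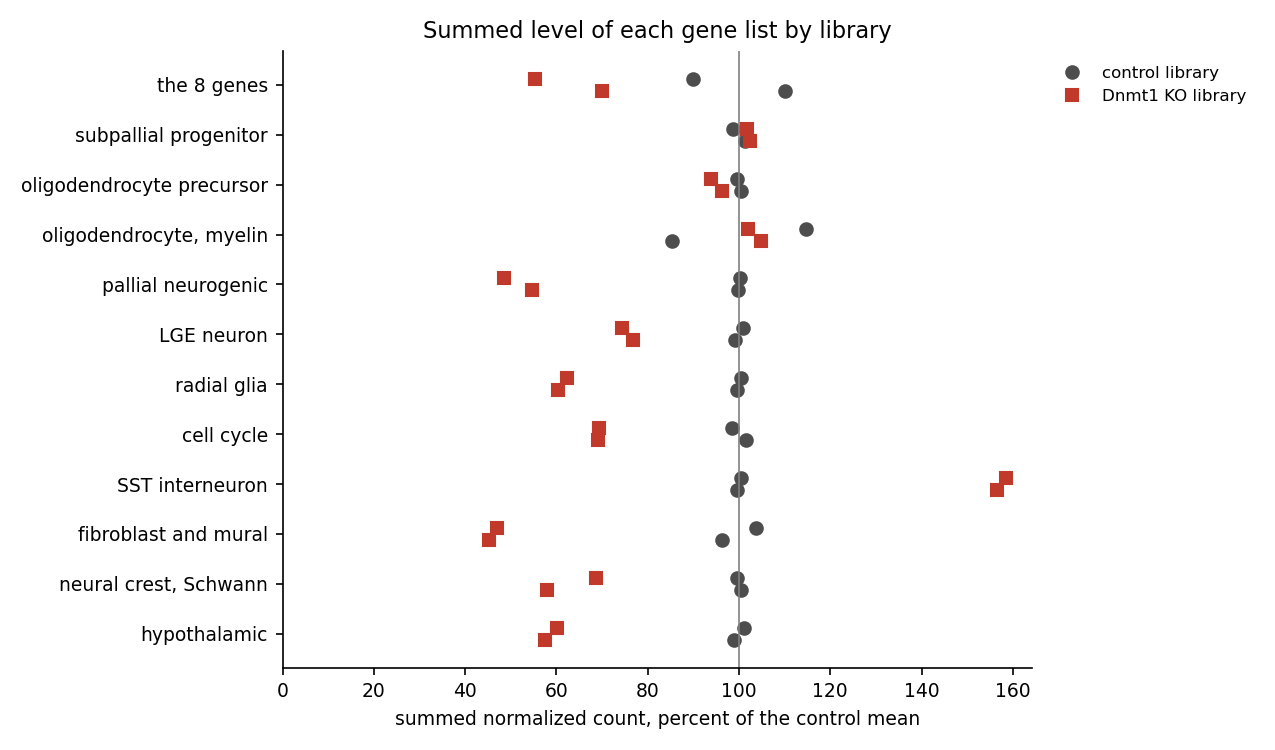
Summed normalized count of the 8 genes and of each marker list in each control (circles) and *Dnmt1* KO (squares) library, as a percentage of the control mean. The *Dnmt1* KO mean is 62.6% of control for the 8 genes, 61.4% for radial glia and 69.2% for cell cycle genes. It is 46.0% for fibroblast and mural, 51.6% for pallial neurogenic and 58.8% for hypothalamic genes. Neural crest and Schwann cell genes, with *Fabp7*, stand at 63.2% and lateral ganglionic eminence genes at 75.6%. Subpallial progenitor, oligodendrocyte precursor and myelin genes stand at 102%, 95.1% and 103%, and somatostatin interneuron genes at 158%.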

How the data were processed

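RNA of FAC-sorted tdTomato-positive cells was sequenced in 4 libraries, 2 per genotype, grouped by their labels. Per the labels and the methods, the authors used Trim Galore for trimming, STAR for alignment to GRCm39 and Salmon for quantification, and deposited the signal as gene counts divided by DESeq2 size factors. Whole reads were recovered for 100% of the 89965 values above 0, to within 1e-04 of a read. The library kit was stranded, and the strand setting of the counting is not given in the sources used here. Besides *Nkx6-2*, exons of *Nkx2-2*, *Gsx2*, *Olig1*, *Olig2* and *Pdgfra* overlap annotated exons on the opposite strand, so this uncertainty holds for them too. For *Nkx2-2* these belong to the noncoding RNA *Nkx2-2os*, at 0.895 and 1.02 normalized counts in control and 0 and 1.09 in *Dnmt1* KO libraries.

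Genes with a mean of at least 10 were fitted in R 4.3.3 by limma 3.58.1 on log2(normalized count + 1) (variance trend, genotype as the only term) with Benjamini-Hochberg adjustment over 14323 genes. Fold changes of low genes are understated on this scale. The steps were tested on simulated data. Each SD rests on 2 values. The p-values of limma do not measure the spread between a gene's own pools alone, because its variance is drawn towards a trend over all genes. An exact permutation test of 2 against 2 libraries cannot go below 0.333 (two-sided). Positions, lengths and neighbours came from the GENCODE annotation of GRCm39. Python 3.11.15 with pandas 2.3.3, scipy 1.17.1 and matplotlib 3.10.9 was used for summaries and figures.

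Alternatives were other pseudocounts (0.5 and 10), minimum means (1 and 50) and scalings (TMM, quantile), limma with 1 prior variance for all genes, count models on the recovered reads (edgeR 4.0.16, DESeq2 1.42.0, limma-voom), subtraction of smooth length and GC trends (splines, 5 degrees of freedom), a replicate block, and leaving out single libraries. With a library left out, the remaining single library is assumed to vary like the others.

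The 8 genes and the lists were chosen with earlier results of these data known. All 8 genes are named, with called list genes, neighbouring genes and the 3 genes closest to a called gene. *Nkx2-1*, *Nkx6-1*, *Sox8*, *Cspg4*, *Pdgfa*, *Mobp*, *Myrf*, *Enpp6*, *Opalin* and *Mia* were named after their values were seen. A gene of the lists is not reported here by name.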

Additional observations from a re-analysis of the deposited data

How the results depend on the processing

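The call of *Nkx2-2* depended on the processing. Among the 8 genes the number called lower was 1, and it was 0 with a minimum mean of 50, quantile normalization, no variance trend, DESeq2, limma-voom or the trend over length and GC content removed, and 0 to 1 with each library left out. At a minimum mean of 50 *Nkx2-2* was below the minimum. Its log2 fold change was -1.33 with quantile normalization (adjusted p = 0.0681), -1.40 without the variance trend (0.283, where limma called 0 of all genes, with 3339 at an unadjusted p below 0.05), -1.44 with DESeq2 (0.101), -1.43 with limma-voom (0.0523) and -1.30 with the length and GC trend removed (0.0526), and -2.01 to -0.79 with each library left out. The cause was not tested. No alternative called any of the 8 genes higher. *Gsx2* changed sign with quantile normalization (0.053) and with the length and GC trend removed (0.10), and ran from -0.32 to 0.22 with each library left out. *Pdgfra* ran from -0.96 to 0.014. *Gsx1*, *Olig1* and *Olig2* kept their negative direction and were not called under any alternative that gave them a value. DESeq2 called 1317 genes of all tested, against 2476 with limma, and without control replicate 2 or control replicate 1 limma called 1525 or 1648. DESeq2 called 7 cell cycle and 3 fibroblast and mural genes lower.

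The labels do not say whether same-numbered libraries were prepared as pairs, and they were treated as unpaired. The correlation between the deviations of same-numbered libraries was 0.0157 over 8418 genes. That value shows no shift shared over genes, but it cannot tell how the libraries were prepared. With the replicate number as a block, *Nkx2-2* again had -1.40 on the log2 scale (adjusted p = 0.00116 by limma) and was again the only 1 of the 8 genes called, while 2957 of all genes were called. At 3 to 84 reads per gene and library, counting error and 2 libraries per genotype limit what can be seen.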
